A study of Mus musculus with 19 samples.

Results

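The genes of mitochondrial and peroxisomal fatty acid oxidation were read in epididymal white adipose tissue (eWAT), the fat depot beside the testis, of male C57BL6/J mice on 4 diets. They were chosen by symbol, from a list of 37 genes, and all 37 were found among the 24237 genes of the expression table. Of these, 35 passed the filter on low values and were among the 8336 genes tested. Cpt1b and Amacr did not pass it.

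A fatty acid is burned after it is coupled to coenzyme A (CoA). The carnitine shuttle carries long chains into the mitochondrion, an acyl-CoA dehydrogenase opens each turn of the oxidation spiral, a hydratase, a second dehydrogenase and a thiolase close it, and the electrons of the opening step leave through the electron transfer flavoprotein. Peroxisomes run a similar spiral with their own enzymes on very long and branched chains. White adipocytes mainly store fat, and their oxidation genes are transcribed beside those of the stromal and immune cells of the same depot.

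The mice were 9 to 10 weeks old at the start and ate their diet for 17 weeks. The NormMg-LFD group (n = 4) received 10% of energy as fat and 0.21% wt/wt MgO, and the LowMg-LFD group (n = 5) the same low-fat diet (LFD) with 0.03% MgO. The NormMg-HFD and LowMg-HFD groups (n = 5 each) received a high-fat diet (HFD) with 60% of energy as fat, from palm oil, and 0.21% or 0.03% MgO. Each library held 1 mouse and 12986441 to 13027028 reads of 50 bases, of which 86.1% to 90.4% mapped, and levels are given in FPKM, fragments per kilobase of transcript scaled to library size.

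The tissue label was checked against marker genes. Adiponectin (Adipoq) ranged from 1072 to 2569 FPKM over the 19 mice, while Ucp1 of brown fat reached at most 1.59, and the muscle genes Ckm and Myh4 at most 0.56 and 0.11. Other genes of these lists were higher. The 8 skeletal muscle genes summed to 38.33 to 80.35 FPKM per mouse, and the 6 brown fat genes to 15.5 to 61.63. Genes of other organs stood out in single libraries. The 12 exocrine pancreas genes summed to 1737 FPKM in NormMg-LFD replicate 3 and to between 12.5 and 52.4 in the other 18 mice. The study's methods describe leaving out a LowMg-HFD sample for pancreatic tissue, which these values do not match, as every LowMg-HFD library lay below 52.4, and all libraries were used here. The study does not number the sample it left out. Without LowMg-HFD replicate 4, a filter of 3 on log2(FPKM + 1) left 8808 genes, as many as the study's retained transcripts. No other library was left out with this filter. The 7 measured genes of sperm and epididymis summed to 2240 FPKM in LowMg-HFD replicate 4, against 0.94 to 500 elsewhere, with the highest of these in NormMg-LFD replicate 5. The counts of members that passed are therefore also given without NormMg-LFD replicate 3 and LowMg-HFD replicate 4.

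Before the levels, bases before a RefSeq start of 5 members are shown, as they belong to members that changed together or apart. A RefSeq window (GRCm38.p6, 250 bases before to 50 after the gene start) was found for 29 of the 37. Printed is the longest run before the start that lies in no exon of the GENCODE annotation, 5′ to 3′ on the gene's strand. For Cpt1a and Acaa1a the GENCODE gene begins further upstream, so that the bases shown lie within it. Hadha and Hadhb encode both subunits of the mitochondrial trifunctional protein and are transcribed away from each other, from RefSeq starts 273 bases apart, and their windows share 228 bases. The 85 bases between the GENCODE starts of both genes (chr5:30155163-30155247, plus strand) have those that lie in both windows in capitals.
Hadhb: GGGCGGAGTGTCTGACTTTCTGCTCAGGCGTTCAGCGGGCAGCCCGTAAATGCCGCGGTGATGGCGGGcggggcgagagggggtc
Nuclear receptors that control oxidation genes, the PPARs among them, bind copies of the letters AGGTCA. These letters were searched on both strands and are in capitals in the bases of Cpt1a (chr19:3323051-3323284, plus strand, where they read on the opposite strand) and Echs1 (chr7:140116477-140116671, minus strand), of which the first rose and the second fell with the HFD.
Cpt1a: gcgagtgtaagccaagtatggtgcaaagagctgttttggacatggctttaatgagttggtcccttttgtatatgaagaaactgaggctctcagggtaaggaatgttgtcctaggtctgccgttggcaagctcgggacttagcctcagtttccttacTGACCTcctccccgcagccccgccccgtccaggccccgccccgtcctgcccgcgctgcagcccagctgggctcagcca
Echs1: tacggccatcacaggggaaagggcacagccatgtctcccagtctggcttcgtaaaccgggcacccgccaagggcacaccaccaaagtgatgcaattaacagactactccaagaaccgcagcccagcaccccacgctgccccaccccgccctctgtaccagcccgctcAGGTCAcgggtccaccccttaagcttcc
AGGTCA was found in the windows of 5 of the 29 members (Cpt1a, Acadvl, Acadm, Echs1 and Scp2) and in 16.3% of all 32851 windows, and a direct repeat of these letters with 1 base between, the form that PPARs bind with their partner RXR, in those of 0 of the 29 and in 0.0396% of all. Only exact letters within these windows were searched, so variant or more distant sites would be missed. Acaa1a (chr9:119341160-119341293, plus strand) and Acaa1b (chr9:119157094-119157343, minus strand) are copies of the peroxisomal thiolase gene that lie near each other on chromosome 9. Their printed bases, without capitals, are 61.2% and 41.6% G or C.
Acaa1a: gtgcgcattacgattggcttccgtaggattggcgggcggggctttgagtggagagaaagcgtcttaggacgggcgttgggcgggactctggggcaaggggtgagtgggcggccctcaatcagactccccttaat
Acaa1b: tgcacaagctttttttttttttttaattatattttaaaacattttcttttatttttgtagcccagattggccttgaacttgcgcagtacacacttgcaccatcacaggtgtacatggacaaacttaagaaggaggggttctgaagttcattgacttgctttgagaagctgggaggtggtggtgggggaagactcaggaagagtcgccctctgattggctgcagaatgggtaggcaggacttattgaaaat

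Low Mg2+ on the HFD was the first comparison, LowMg-HFD against NormMg-HFD. There were 7 members that rose, namely Crat, Acad11, Acad12, Echs1, Etfa, Abcd2 and Ehhadh, by 0.23 to 0.57 on the log2 scale, and Cpt1a and Hadha fell by 0.33 and 0.36 (limma, Benjamini-Hochberg adjusted p under 0.05 over all 8336 genes). That is 7 of 35 members higher, beside 5.58% of all genes tested, and 2 of 35 lower, beside 12.9% of all genes. The groups did not overlap for 5 of 35 members that were higher, beside 3.2% of all genes, and for 1 that was lower, beside 9.56%. The median log2 fold change was 0.08 over the 35 members and -0.04 over all genes tested. The calls of Crat, Acad11, Echs1 and Abcd2 held under all 30 alternative settings. Without the 2 libraries with genes of other organs, a setting added after the data were seen, 8 rose and 1 fell, with Scp2 called as higher and Cpt1a no longer called. Without LowMg-HFD replicate 4 and with the filter of 3 on log2(FPKM + 1), Cpt1a was also not called, and Eci1 was called as higher. The count of 9 was 4 without NormMg-HFD replicate 1, 3 or 4 or LowMg-HFD replicate 3, and 5 without LowMg-HFD replicate 5, and neither Cpt1a nor Hadha was called as lower after median centring (7 higher, 0 lower, beside 649 and 849 of all 8336 genes) or quantile normalization (12 higher, 0 lower, beside 786 and 878).

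On the LFD, low Mg2+ gave no member past the threshold in limma (0 of 35, beside 0% of the 8336 genes). At an unadjusted p under 0.05 there were 6 members, Slc25a20, Crat, Acadvl, Acadm, Eci1 and Ehhadh, all with positive fold changes, and 547 of all genes (6.56%). The fold change was positive for 29 of the 35, with a median of 0.15 on the log2 scale against -0.06 over all genes. The largest was that of Pdk4, at 0.76 with a 95% confidence interval of -0.01 to 1.53. The difference between the Mg2+ effects on both diets (interaction of Mg2+ and fat) was called for 0 members in limma, beside 1.25% of all genes. There were 7 members at an unadjusted p under 0.05, beside 20.4% of all genes, and the lowest adjusted p was that of Abcd2 (interaction 0.58, 95% confidence interval 0.23 to 0.94, adjusted p = 0.0695). Abcd2 passed after quantile normalization and without NormMg-HFD replicate 5 or LowMg-HFD replicate 2.

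The HFD was compared with the LFD at each Mg2+ content. At normal Mg2+, Cpt1a, Acadl, Hadha, Hadhb, Acaa2, Decr1, Etfdh, Acaa1b and Pdk4 rose (9 of 35, beside 24.6% of all genes), and Crat, Acad10, Acad11, Gcdh, Echs1, Hadh, Eci1, Eci2, Abcd2 and Scp2 fell (10 of 35, beside 12.8%). The groups did not overlap for 9 members that were higher, beside 21.5% of all genes, and for 5 that were lower, beside 10.6%. At low Mg2+, Cpt1a and Acadl rose (2 of 35, beside 12.4%), and Acadvl, Echs1, Eci1 and Scp2 fell (4 of 35, beside 3.51%), and the groups did not overlap for 1 member that was higher, beside 6.99%, and 3 that were lower, beside 2.3%. The median of all genes tested was 0.07 at normal and 0.10 at low Mg2+ on the log2 scale, and -0.03 and -0.01 after median centring, against member medians of 0.02 and -0.02 before and -0.08 and -0.13 after it. The members then split into 4 higher and 13 lower at normal Mg2+ (4 and 14 after quantile normalization), the 4 being Cpt1a, Acadl, Acaa1b and Pdk4, and into 1 higher and 5 lower at low Mg2+ (1 and 6). Of all 8336 genes, 1580 were then higher and 1572 lower at normal Mg2+ (1499 and 1696 after quantile normalization), and 593 higher and 531 lower at low Mg2+ (549 and 530). Without the 2 libraries with genes of other organs, 8 rose and 10 fell at normal Mg2+, and 2 rose and 3 fell at low Mg2+. The calls lost without them were those of Cpt1a for Mg2+ on the HFD, Acaa2 and Gcdh for fat at normal Mg2+, and Acadl and Acadvl for fat at low Mg2+. Without NormMg-LFD replicate 4, fat at normal Mg2+ lost the calls of Hadha, Hadhb, Acaa2, Decr1, Etfdh and Gcdh, and Acox3 was called as higher. The comparison at normal Mg2+ and that of Mg2+ on the HFD share the NormMg-HFD mice, so that a low or high value in these mice enters both with opposite signs.

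**Figure D1:**
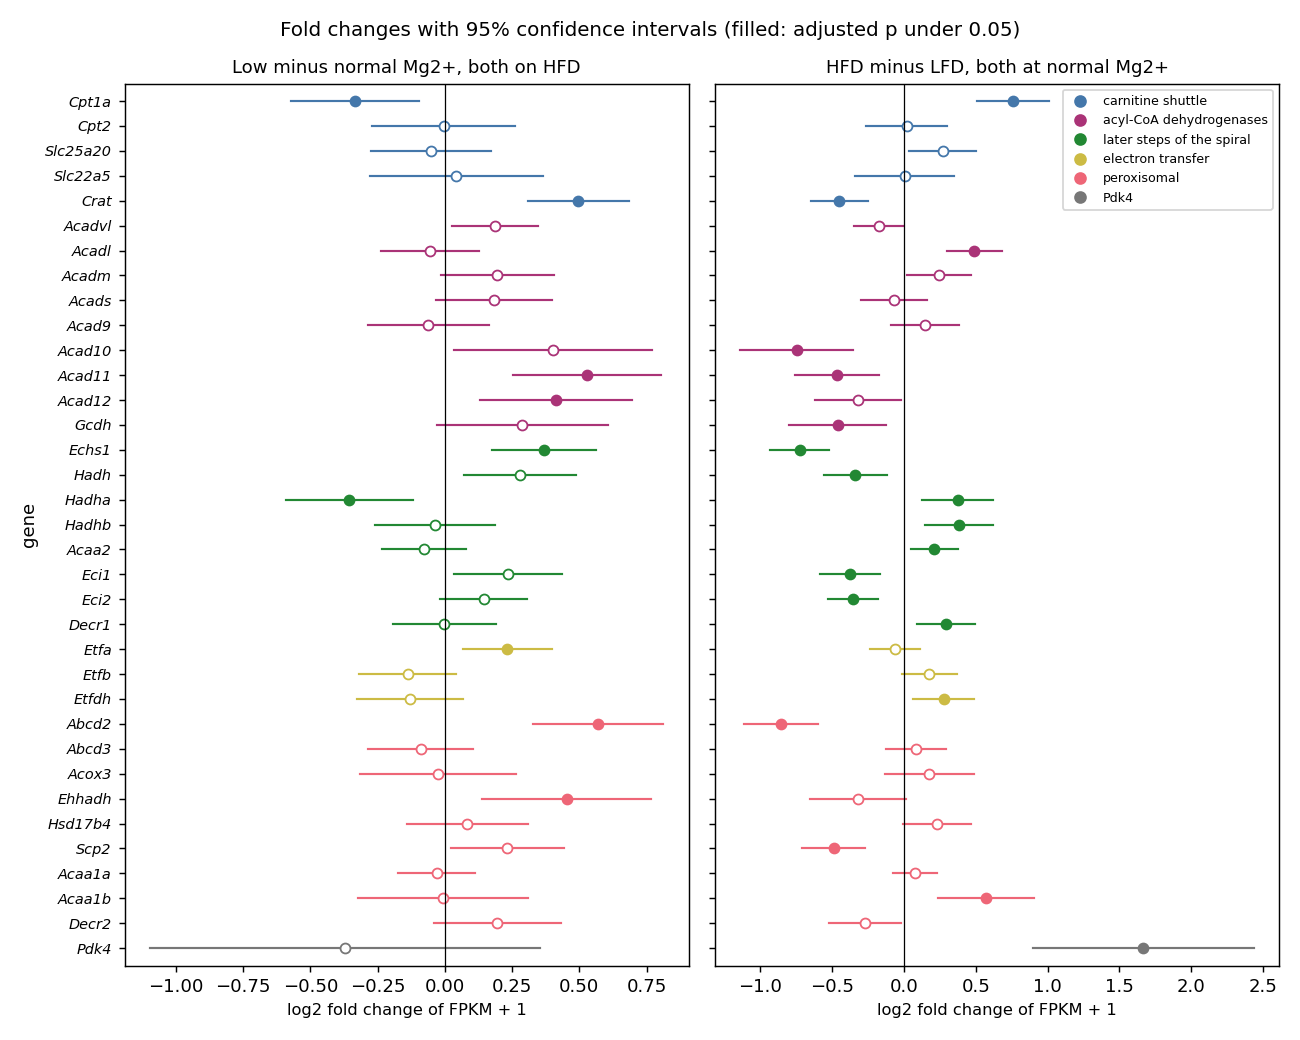
Log2 fold changes of FPKM + 1 (x axis) of the 35 members tested (y axis, by class) for low against normal Mg2+ on the HFD (left) and for HFD against LFD at normal Mg2+ (right). Lines are 95% confidence intervals from limma and filled points have an adjusted p under 0.05; 9 points are filled on the left and 19 on the right.

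In the carnitine shuttle, Cpt1a and Crat carried the calls. Cpt1a (chr19:3322334-3385733, plus strand, GRCm38) encodes the liver form of carnitine palmitoyltransferase 1, which commits long chains to mitochondrial oxidation. Its FPKM was 27.3, 29.0, 32.6 and 32.6 in NormMg-LFD, 27.4, 30.3, 20.8, 27.4 and 30.4 in LowMg-LFD, 52.7, 50.9, 51.2, 55.9 and 49.6 in NormMg-HFD and 48.0, 50.6, 34.5, 36.0 and 38.8 in LowMg-HFD (replicates 2 to 5 in NormMg-LFD and 1 to 5 in the other groups, in this order throughout). The NormMg-HFD mice lay above every LFD mouse, and so did the LowMg-HFD mice, in which replicate 2 lay in the NormMg-HFD range, replicate 1 just below it and replicates 3 to 5 further below. The HFD raised Cpt1a by 0.76 ± 0.12 (SE, log2 scale) at normal Mg2+ (limma adjusted p = 6.34e-05) and by 0.59 ± 0.11 at low Mg2+ (adjusted p = 0.00238). On the HFD it fell by 0.33 ± 0.11 with low Mg2+ (adjusted p = 0.0469), a call lost in 22 of 30 alternatives, with adjusted p from 0.0165 to 0.130. By quantitative PCR of eWAT, normalised to Gapdh, the study reports higher levels of β-oxidation genes in LowMg-HFD than in NormMg-HFD. Cpt1a and Cpt2 were among the genes it measured, and those assays were not compared with FPKM here.

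Crat (chr2:30400471-30415813, minus strand) encodes carnitine acetyltransferase, which moves short acyl groups between CoA and carnitine. It measured 158, 171, 114 and 150.0 in NormMg-LFD, 199, 173, 166, 164 and 186 in LowMg-LFD, 103, 112, 106, 105 and 109 in NormMg-HFD and 146, 148, 151, 147 and 165 in LowMg-HFD. All 5 LowMg-HFD mice lay above all 5 NormMg-HFD mice, which in turn were the lowest of the 4 groups. Crat rose by 0.50 ± 0.09 with low Mg2+ on the HFD (limma adjusted p = 0.0023) and fell by 0.45 ± 0.10 with fat at normal Mg2+ (adjusted p = 0.00105). The other 3 shuttle genes that were tested passed in no comparison. Cpt2, the transferase on the inner membrane, ranged from 36.9 to 65.3 FPKM over the 19 mice, the acylcarnitine carrier Slc25a20 from 29.0 to 47.4 and the carnitine importer Slc22a5 from 9.79 to 19.9. Cpt1b, the muscle form, stayed between 0.66 and 8.42 in 18 mice and was 29.9 in LowMg-HFD replicate 4, the library with sperm genes. For Cpt1b, 78.6% of the 50-base words of its transcripts also occur in Gm44502.

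**Figure D2:**
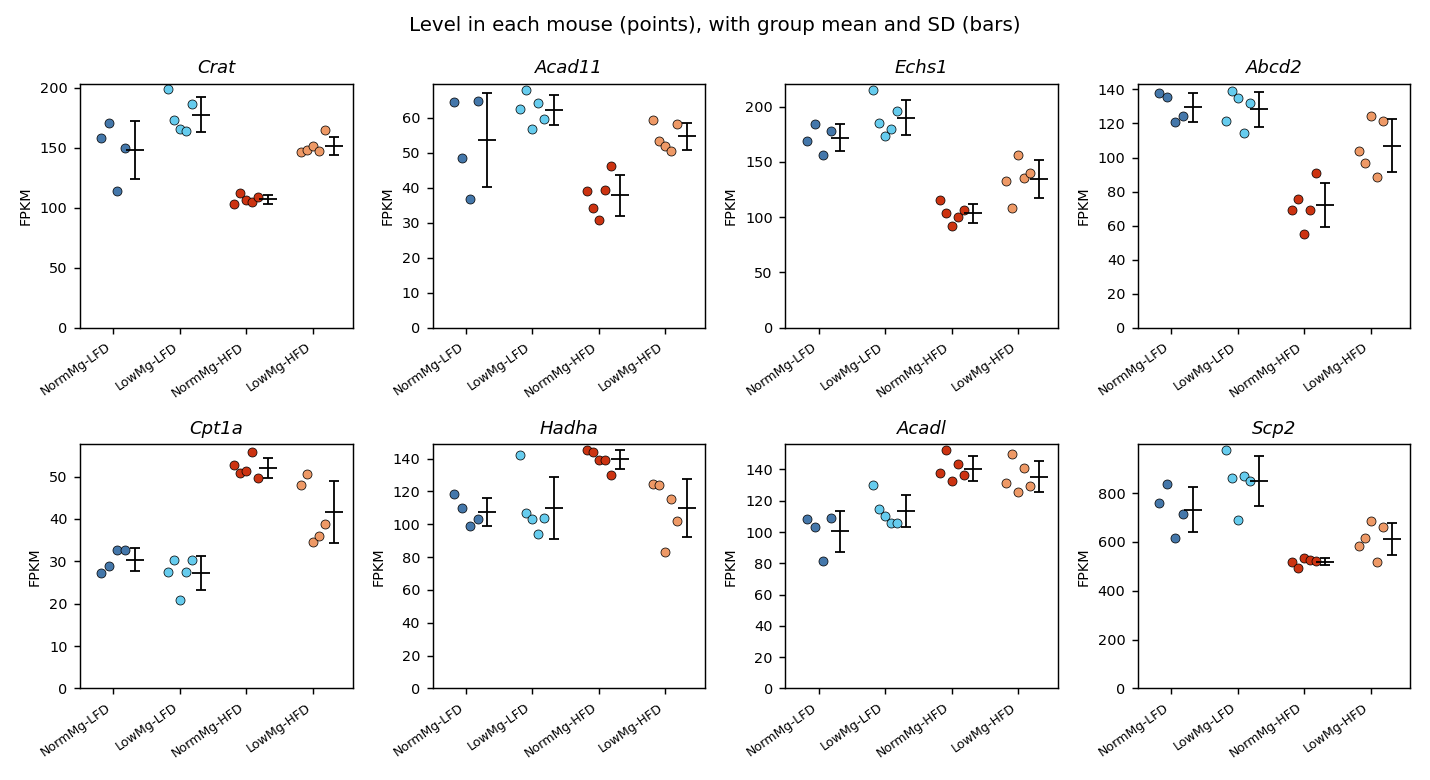
FPKM (y axis, from 0) of 8 members in each mouse (points) of the 4 diet groups (x axis), with the group mean and SD beside the points. Crat is above the NormMg-HFD mice in every LowMg-HFD mouse, and Cpt1a, Acadl and Scp2 differ between the NormMg groups on LFD and HFD without overlap.

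Among the 9 acyl-CoA dehydrogenases, Acad11 and Acad12 rose and none fell with low Mg2+ on the HFD. Acad11 (chr9:104063377-104127725, plus strand) takes part in the breakdown of hydroxy fatty acids. Its FPKM was 64.5, 48.5, 36.9 and 64.9 in NormMg-LFD, 62.5, 67.9, 56.7, 64.1 and 59.7 in LowMg-LFD, 39.2, 34.3, 30.7, 39.3 and 46.2 in NormMg-HFD and 59.3, 53.5, 52.0, 50.5 and 58.3 in LowMg-HFD, and the HFD groups did not overlap. It rose by 0.53 ± 0.13 with low Mg2+ on the HFD (limma adjusted p = 0.00942) and fell by 0.47 ± 0.14 with fat at normal Mg2+ (adjusted p = 0.0124). The second call was lost without NormMg-LFD replicate 2 or 5 (adjusted p = 0.0587 and 0.0586). Acad12 measured 12.03, 8.43, 10.4 and 9.53 in NormMg-LFD, 8.51, 9.80, 12.02, 10.9 and 9.51 in LowMg-LFD, 7.95, 9.55, 6.53, 6.32 and 9.31 in NormMg-HFD and 11.1, 11.01, 11.01, 8.46 and 12.6 in LowMg-HFD, with overlap of the HFD groups. Its rise with low Mg2+ on the HFD was 0.41 ± 0.14 (adjusted p = 0.04), and the call was lost in 10 of 30 alternatives, 7 of them leaving out 1 HFD mouse. Acad10, its neighbour on chromosome 5, measured 16.4, 10.1, 12.5 and 11.1 in NormMg-LFD, 10.1, 10.5, 9.14, 10.3 and 12.5 in LowMg-LFD, 6.56, 8.47, 4.13, 6.61 and 10.3 in NormMg-HFD and 11.03, 8.36, 11.4, 9.23 and 7.92 in LowMg-HFD, and fell by 0.75 ± 0.19 with fat at normal Mg2+ (adjusted p = 0.004). Acad10 and Acad12 share 16.8% and 15.7% of their 50-base words with each other, so reads may be split between them.

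Acadl (chr1:66830839-66863277, minus strand), the long-chain dehydrogenase, moved with fat. It measured 108, 103, 81.2 and 109 in NormMg-LFD, 130.2, 114, 110.1, 106 and 106 in LowMg-LFD, 138, 152, 133, 144 and 136 in NormMg-HFD and 131, 149.9, 126, 141 and 129 in LowMg-HFD, so that every NormMg-HFD mouse lay above every NormMg-LFD mouse. The rise was 0.49 ± 0.09 at normal Mg2+ (limma adjusted p = 0.000339) and 0.26 ± 0.09 at low Mg2+ (adjusted p = 0.0499), the latter lost in 27 of 30 alternatives. Acadvl, for very long chains, measured 96.8, 92.0, 79.0 and 80.6 in NormMg-LFD, 119, 99.5, 95.6, 98.3 and 103 in LowMg-LFD, 78.6, 81.1, 73.0, 75.7 and 75.7 in NormMg-HFD and 83.2, 83.0, 96.1, 85.9 and 89.8 in LowMg-HFD. It fell by 0.23 ± 0.08 with fat at low Mg2+ (adjusted p = 0.0479), a call lost in 23 of 30 alternatives, and 26.9% of its words also occur in the overlapping gene Dvl2. Gcdh, which acts on glutaryl-CoA from lysine and tryptophan, measured 16.8, 21.2, 21.8 and 18.1 in NormMg-LFD, 21.4, 22.2, 21.8, 26.5 and 17.6 in LowMg-LFD, 19.7, 15.03, 10.7, 12.9 and 12.2 in NormMg-HFD and 13.3, 14.7, 22.0, 17.8 and 18.8 in LowMg-HFD. It fell by 0.46 ± 0.16 with fat at normal Mg2+ (adjusted p = 0.0303), and this call was lost in 7 of 30 alternatives, among them the one without the 2 libraries with genes of other organs (adjusted p = 0.0861). The remaining 3 passed in no comparison: Acadm, the medium-chain enzyme, ranged from 155 to 274 FPKM over the 19 mice, the short-chain Acads from 62.4 to 94.1 and Acad9, which also serves complex I assembly, from 43.1 to 65.4.

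Of the 8 genes of the later steps, 4 rose and 4 fell with fat at normal Mg2+, beside 24.6% and 12.8% of all genes, and after median centring 0 were called as higher and the same 4 (Echs1, Hadh, Eci1 and Eci2) as lower, beside 1580 and 1572 of all 8336 genes. Echs1 (chr7:140105710-140116476, minus strand), the short-chain enoyl-CoA hydratase, measured 169, 184, 156 and 178 in NormMg-LFD, 215, 186, 174, 180.2 and 196 in LowMg-LFD, 115, 104, 91.6, 100.3 and 107 in NormMg-HFD and 133, 108, 157, 135 and 140.1 in LowMg-HFD. At each Mg2+ content the HFD mice lay below the LFD mice. Echs1 fell by 0.73 ± 0.10 with fat at normal Mg2+ (limma adjusted p = 1.21e-05) and by 0.50 ± 0.09 at low Mg2+ (adjusted p = 0.0019), and on the HFD it rose by 0.37 ± 0.09 with low Mg2+ (adjusted p = 0.00949). Hadh, the dehydrogenase of short and medium chains, measured 196, 175, 137 and 190.0 in NormMg-LFD, 222, 178, 183, 161 and 189 in LowMg-LFD, 132, 144, 123, 142 and 143 in NormMg-HFD and 151, 165, 179, 162 and 174 in LowMg-HFD. It fell by 0.34 ± 0.10 with fat at normal Mg2+ (adjusted p = 0.0154), a call lost without NormMg-LFD replicate 2 (adjusted p = 0.0643) or 5 (0.0561).

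Eci1 and Eci2 shift the double bond of unsaturated chains. Eci1 measured 87.2, 84.3, 69.5 and 85.8 in NormMg-LFD, 119.5, 104, 88.8, 104 and 97.9 in LowMg-LFD, 57.4, 60.4, 56.1, 69.9 and 70.4 in NormMg-HFD and 76.7, 77.7, 77.0, 63.3 and 75.2 in LowMg-HFD. Its level in all LowMg-LFD mice exceeded that in all HFD mice, and it fell by 0.37 ± 0.10 with fat at normal Mg2+ (limma adjusted p = 0.00659) and by 0.47 ± 0.10 at low Mg2+ (adjusted p = 0.00306). Eci2 measured 85.0, 79.4, 70.3 and 73.6 in NormMg-LFD, 75.6, 85.6, 68.5, 71.9 and 87.3 in LowMg-LFD, 57.8, 62.2, 56.8, 59.2 and 64.0 in NormMg-HFD and 65.5, 69.2, 69.0, 65.1 and 63.2 in LowMg-HFD. It fell by 0.35 ± 0.08 at normal Mg2+ (adjusted p = 0.00212), and neither isomerase passed for Mg2+ on the HFD, at 0.24 (adjusted p = 0.0925) and 0.14 (adjusted p = 0.205).

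Hadha (chr5:30118304-30155162, minus strand) and Hadhb (chr5:30155248-30184593, plus strand) together carry out the last 3 steps on long chains. Hadha measured 118, 109.8, 99.0 and 103 in NormMg-LFD, 142, 107, 103, 93.9 and 104 in LowMg-LFD, 145, 144, 139, 139 and 129.8 in NormMg-HFD and 125, 124, 83.1, 116 and 102 in LowMg-HFD, and no LowMg-HFD mouse reached the NormMg-HFD range. Hadhb measured 146, 148, 116 and 156 in NormMg-LFD, 206, 157, 144, 150.2 and 174 in LowMg-LFD, 197, 190.2, 186, 173 and 172 in NormMg-HFD and 195, 210.2, 172, 168 and 155 in LowMg-HFD, with the HFD groups overlapping. With fat at normal Mg2+ both rose, Hadha by 0.37 ± 0.12 (limma adjusted p = 0.0189) and Hadhb by 0.38 ± 0.11 (adjusted p = 0.0114). Both of these calls were lost after median centring, quantile normalization and without NormMg-LFD replicate 4 (adjusted p = 0.0530 and 0.0502). On the HFD, Hadha fell by 0.36 ± 0.11 with low Mg2+ (adjusted p = 0.0344; lost in 9 of 30 alternatives), and Hadhb differed by -0.04 (95% confidence interval -0.26 to 0.19, adjusted p = 0.849).

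The ratio of Hadha to Hadhb, both in FPKM, was then taken within each mouse, a measure chosen after the values were seen and given without a test. It was 0.811, 0.741, 0.852 and 0.664 in NormMg-LFD, and 0.688, 0.683, 0.715, 0.625 and 0.599 in LowMg-LFD. On the HFD it was 0.738, 0.756, 0.748, 0.802 and 0.753 with normal Mg2+ and 0.639, 0.590, 0.482, 0.689 and 0.658 with low Mg2+. The HFD groups did not overlap, at 0.759 ± 0.025 (SD, n = 5) and 0.611 ± 0.081 (n = 5), while the LFD groups did, at 0.767 ± 0.083 (n = 4) and 0.662 ± 0.048 (n = 5). Of the words of Hadhb, 18.1% also occur in the transcript Gm13910, and of those of Hadha 0.341% in any other gene.

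**Figure D3:**
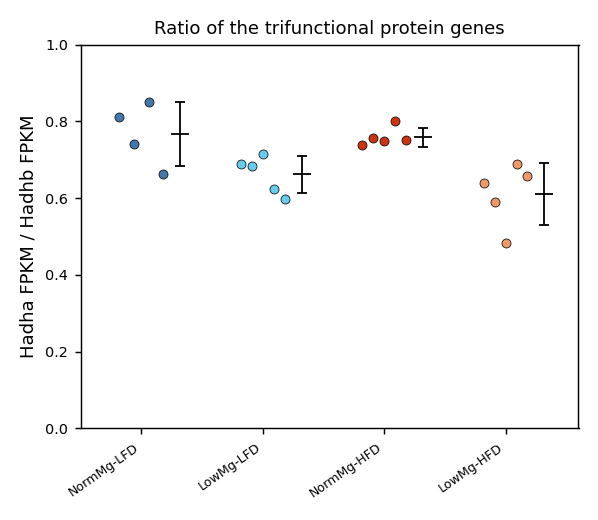
Hadha FPKM divided by Hadhb FPKM in each mouse (points; y axis from 0) of the 4 diet groups (x axis), with the group mean and SD. The 5 LowMg-HFD mice lie between 0.482 and 0.689, below the 5 NormMg-HFD mice between 0.738 and 0.802.

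Acaa2, the mitochondrial thiolase, measured 72.4, 73.9, 67.6 and 72.8 in NormMg-LFD, 86.5, 75.0, 67.8, 69.5 and 76.3 in LowMg-LFD, 78.8, 80.2, 82.6, 90.2 and 84.1 in NormMg-HFD and 86.8, 80.8, 78.4, 76.2 and 71.9 in LowMg-HFD, a narrow spread in which NormMg-HFD lay just above NormMg-LFD. Its rise with fat at normal Mg2+ was 0.21 ± 0.08 (limma adjusted p = 0.0407), lost in 12 of 30 alternatives. Decr1, the reductase for polyunsaturated chains, measured 62.3, 61.1, 48.7 and 68.2 in NormMg-LFD, 79.2, 64.3, 69.5, 55.4 and 67.7 in LowMg-LFD, 72.3, 75.9, 72.3, 70.9 and 75.3 in NormMg-HFD and 69.3, 78.1, 73.0, 71.3 and 74.7 in LowMg-HFD. It rose by 0.29 ± 0.10 in the same comparison (adjusted p = 0.023), a call lost after median centring or quantile normalization and without NormMg-LFD replicate 4 (adjusted p = 0.0994).

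Of the electron transfer genes, Etfa and Etfb encode the subunits of the flavoprotein and Etfdh the enzyme that passes its electrons to ubiquinone. Etfa measured 181, 167, 155 and 169 in NormMg-LFD, 185, 199, 165, 165 and 184 in LowMg-LFD, 151, 145, 163, 172 and 176 in NormMg-HFD and 190.0, 195, 197, 166 and 198 in LowMg-HFD, with overlap between all groups. It rose by 0.23 ± 0.08 with low Mg2+ on the HFD (limma adjusted p = 0.048), lost in 18 of 30 alternatives. Etfdh measured 42.2, 46.7, 40.3 and 42.8 in NormMg-LFD, 59.6, 44.0, 47.2, 41.8 and 51.3 in LowMg-LFD, 57.6, 53.7, 49.3, 54.6 and 46.5 in NormMg-HFD and 49.9, 51.8, 42.0, 50.8 and 44.5 in LowMg-HFD and rose by 0.28 ± 0.10 with fat at normal Mg2+ (adjusted p = 0.0364), lost in 10 of 30. Etfb passed in no comparison, ranged from 193 to 277 FPKM over the 19 mice and shares 43.8% of its words with Gm45233.

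Of the peroxisomal membrane transporters, Abcd2 passed for Mg2+ on the HFD and for fat at normal Mg2+, and Abcd3 passed in no comparison. Abcd2 (chr15:91145871-91191799, minus strand), which imports very long-chain acyl-CoA, measured 138, 135, 121 and 124 in NormMg-LFD, 121, 139, 135, 114 and 132 in LowMg-LFD, 69.3, 75.4, 55.1, 69.3 and 91.1 in NormMg-HFD and 104, 96.6, 125, 88.5 and 122 in LowMg-HFD. The NormMg-HFD mice lay below all LFD mice, and the LowMg-HFD mice reached from 88.5, inside the NormMg-HFD range, to 125, inside the LFD range. Abcd2 fell by 0.85 ± 0.12 with fat at normal Mg2+ (limma adjusted p = 2.3e-05) and rose by 0.57 ± 0.12 with low Mg2+ on the HFD (adjusted p = 0.00356). At low Mg2+ the fat difference was -0.27 (95% confidence interval -0.51 to -0.03, adjusted p = 0.124). Abcd3, the transporter for branched and dicarboxylic acids, ranged from 27.4 to 39.7 FPKM.

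Ehhadh, the bifunctional enzyme of the straight-chain peroxisomal path, measured 23.3, 28.8, 17.9 and 19.2 in NormMg-LFD, 39.9, 33.8, 28.6, 28.2 and 26.0 in LowMg-LFD, 18.5, 18.9, 13.5, 17.3 and 19.4 in NormMg-HFD and 30.5, 28.1, 23.6, 19.9 and 20.4 in LowMg-HFD. All LowMg-HFD mice exceeded the NormMg-HFD mice, although the lowest, 19.9 and 20.4, were close to the highest NormMg-HFD mouse at 19.4. The rise was 0.45 ± 0.15 (limma adjusted p = 0.0419), a call lost in 8 of 30 alternatives. Scp2, which holds a thiolase and a lipid carrier, was the most abundant member, with a mean of 675 FPKM over the 19 mice. It measured 760.2, 838, 616 and 716 in NormMg-LFD, 976, 861, 689, 869 and 850.0 in LowMg-LFD, 518, 495, 532, 525 and 523 in NormMg-HFD and 584, 615, 685, 517 and 659.9 in LowMg-HFD. At each Mg2+ content the HFD mice lay below the LFD mice, and Scp2 fell by 0.49 ± 0.11 at normal Mg2+ (adjusted p = 0.00124) and by 0.47 ± 0.10 at low Mg2+ (adjusted p = 0.00406). The copy Scp2-ps2 shares 29.7% of its words.

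Of the thiolase copies whose bases were shown, Acaa1b passed with fat and Acaa1a in no comparison. Acaa1b measured 46.3, 41.3, 36.6 and 48.3 in NormMg-LFD, 56.6, 48.0, 47.9, 39.0 and 51.6 in LowMg-LFD, 53.6, 53.8, 69.7, 64.6 and 84.9 in NormMg-HFD and 78.5, 77.4, 53.7, 47.2 and 69.6 in LowMg-HFD. It rose by 0.57 ± 0.16 with fat at normal Mg2+ (limma adjusted p = 0.00816), and the NormMg groups did not overlap. For Acaa1a the same difference was 0.08 (95% confidence interval -0.07 to 0.23, adjusted p = 0.425), and it ranged from 81.8 to 101 FPKM, the narrowest spread within groups of all members tested. The difference between the copies was not tested, and 30.5% of the words of Acaa1b are also found in Acaa1a. The 3 remaining peroxisomal genes that were tested passed in no comparison. The oxidase Acox3 ranged from 19.4 to 37.7 FPKM, the second bifunctional enzyme Hsd17b4 from 88.9 to 156, and the reductase Decr2 from 10.99 to 17.7. The racemase Amacr, below the filter, ranged from 2.46 to 5.87 FPKM. With a filter of 1 FPKM it was tested and called as lower with fat at normal Mg2+ (-0.45 on the log2 scale, limma adjusted p = 0.026).

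Pdk4 is no oxidation enzyme but a kinase that inhibits pyruvate dehydrogenase and so the conversion of pyruvate to acetyl-CoA. It measured 8.01, 20.2, 7.18 and 13.1 in NormMg-LFD, 23.9, 14.9, 19.7, 15.9 and 26.2 in LowMg-LFD, 34.7, 24.9, 48.6, 45.5 and 39.4 in NormMg-HFD and 61.7, 53.7, 15.1, 16.8 and 23.3 in LowMg-HFD. The NormMg-HFD mice lay above all NormMg-LFD mice, and within LowMg-HFD replicates 1 and 2 stood above every other mouse, while replicates 3 to 5 lay within the LFD range. Pdk4 rose by 1.67 ± 0.37 with fat at normal Mg2+ (limma adjusted p = 0.00144). With low Mg2+ on the HFD the difference was -0.37 (95% confidence interval -1.10 to 0.35, adjusted p = 0.492). Its residual SD was 0.61 on the log2 scale, the highest of the members tested, whose median was 0.17 against 0.22 over all genes.

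The classes were then compared by the mean log2(FPKM + 1) of their genes in each mouse, as a description. With low Mg2+ on the HFD the 9 dehydrogenases had a mean of 5.61 ± 0.03 (SD, n = 5) against 5.38 ± 0.14 with normal Mg2+, the only class of the 5 whose HFD groups did not overlap. The 10 peroxisomal genes stood at 5.64 ± 0.07 against 5.499 ± 0.101. The 8 genes of the later steps stood at 6.69 ± 0.04 against 6.62 ± 0.04, the 3 electron transfer genes at 7.02 ± 0.07 against 7.03 ± 0.03, and the 6 carnitine genes at 5.03 ± 0.25 against 4.91 ± 0.12, with Cpt1b of LowMg-HFD replicate 4 in the latter class. On the LFD at normal Mg2+ (n = 4) the same means were 5.53 ± 0.11, 5.62 ± 0.04, 6.69 ± 0.13, 6.90 ± 0.10 and 4.70 ± 0.07. By the median over a class's genes, the dehydrogenase difference on the HFD shrank from 0.23 to 0.035 and the peroxisomal one from 0.145 to 0.013, and the carnitine, electron transfer and later-step differences changed sign. In counts, 2 of 9 dehydrogenases and 2 of 9 peroxisomal genes tested rose with low Mg2+ on the HFD, beside 5.58% of all genes. Of the 16 carnitine, later-step and electron transfer genes tested, 3 rose. In the same order 0, 0 and 2 fell, beside 12.9% of all genes. The dehydrogenases were grouped by enzyme type, and whether each acts in mitochondria or peroxisomes was not checked.

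**Figure D4:**
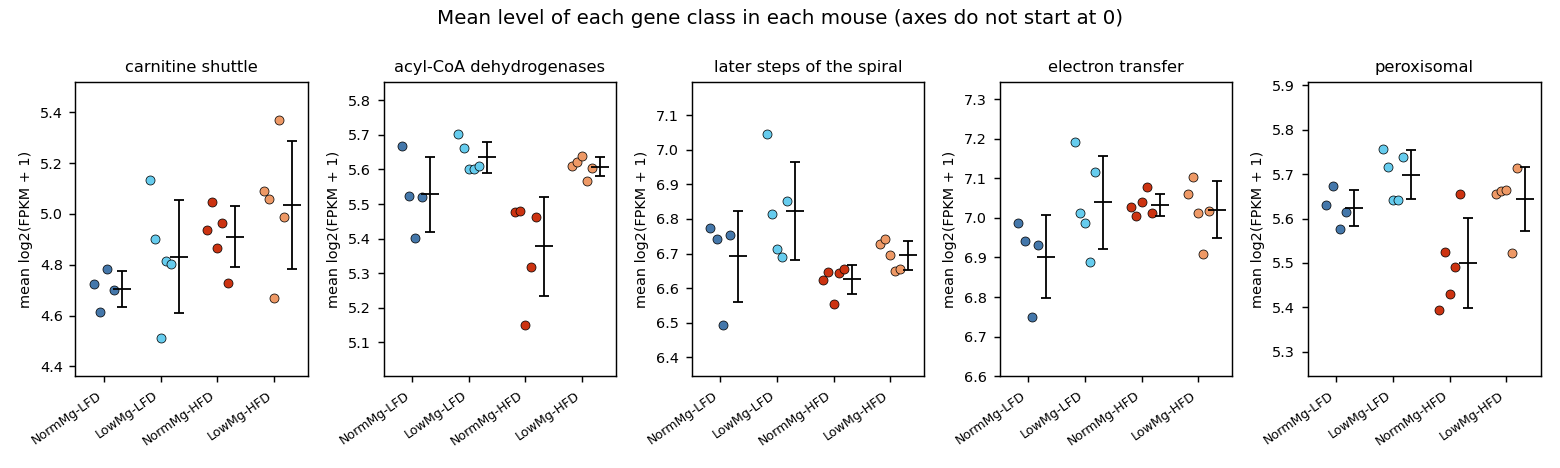
Mean log2(FPKM + 1) of the genes of 5 classes (y axes, which do not start at 0) in each mouse (points) of the 4 diet groups (x axis), with the group mean and SD. The dehydrogenases of the NormMg-HFD mice lie below those of the LowMg-HFD mice, and the other 4 classes overlap between the HFD groups.

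Markers of other cells moved with the same comparisons. Of 12 macrophage genes, 11 fell with low Mg2+ on the HFD (beside 12.9% of all genes), and with fat 11 rose and 1 fell at normal Mg2+ (beside 24.6% and 12.8%) and 8 rose at low Mg2+ (beside 12.4%). Their summed level was 2486 to 3891 FPKM in NormMg-HFD, 897 to 2226 in LowMg-HFD, 781 to 904 in NormMg-LFD and 608 to 1192 in LowMg-LFD. Of 8 adipocyte genes, 5 rose and 0 fell with low Mg2+ on the HFD (beside 5.58% and 12.9%), and with fat 5 fell at normal Mg2+ (beside 12.8%) and 2 at low Mg2+ (beside 3.51%). Their sum was 14090 to 18298 FPKM in NormMg-HFD, 16317 to 20388 in LowMg-HFD, 13328 to 20332 in NormMg-LFD and 18476 to 23426 in LowMg-LFD. Of the markers of other tissues few were high enough to test, 2 of 8 skeletal muscle genes (Myl1, which rose by 0.49 with low Mg2+ on the HFD and fell by 0.74 with fat at normal Mg2+, and Acta1, which did not pass), 1 of 6 brown fat genes and 1 of 12 exocrine pancreas genes (neither passed), and 1 of 6 liver genes, Alb, which rose by 1.65 with low Mg2+ on the HFD and fell by 2.40 with fat at normal Mg2+. Within LowMg-HFD, replicates 1 and 2 had the highest Cpt1a and Pdk4 and also the highest Cd68, a macrophage gene, at 209, 192, 58.4, 56.7 and 66.9 in replicates 1 to 5. The same mice also had the highest Acadm, Acad9, Hadha, Hadhb, Acaa2, Ehhadh and Acaa1b of this group, but not the highest Crat, Echs1 or Abcd2. Within NormMg-HFD, replicate 3 had the highest macrophage sum and the highest Pdk4, while the highest Cpt1a was in replicate 4. The part of cell composition in the results on oxidation genes was not tested, and in bulk tissue fewer cells of a type and less RNA per cell cannot be told apart.

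**Figure D5:**
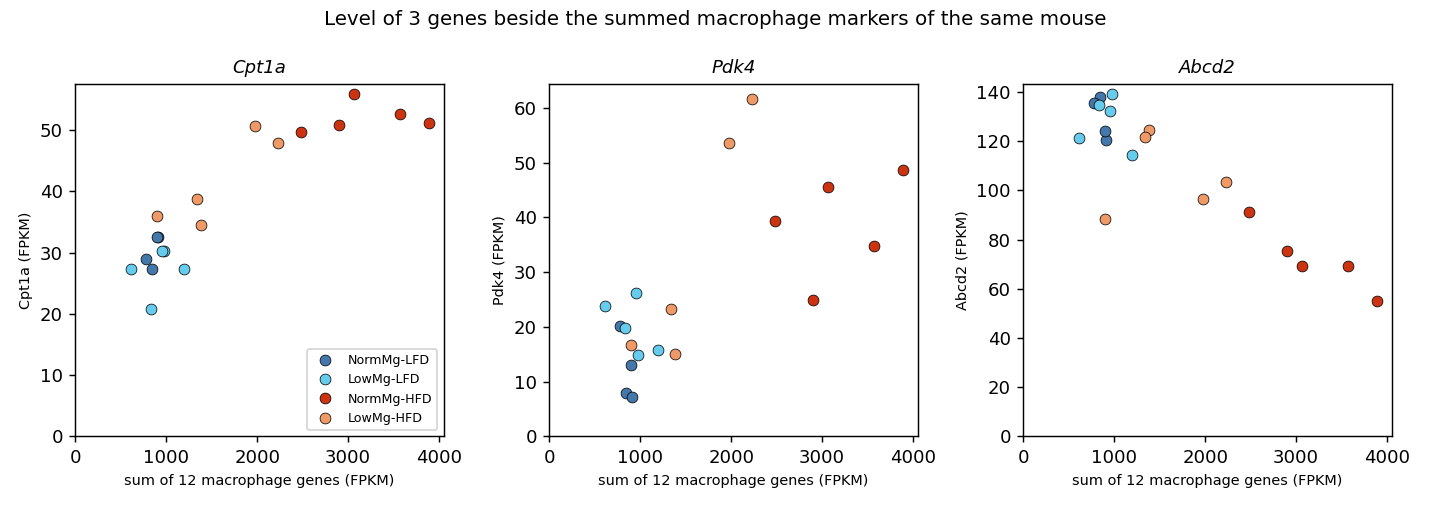
FPKM of Cpt1a, Pdk4 and Abcd2 (y axes, from 0) against the summed FPKM of 12 macrophage genes (x axis) in the same mouse, coloured by diet group (19 mice). The 5 NormMg-HFD mice hold the 5 highest macrophage sums, 2486 to 3891, and the 5 LowMg-HFD mice span 897 to 2226.

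Further genes of fatty acid and related acyl-CoA breakdown were read from a list of 24, of which 21 were tested. With low Mg2+ on the HFD 6 rose and 1 fell, beside 5.58% and 12.9% of all genes, with a median log2 fold change of 0.10 against -0.04 over all genes. Ivd and Acadsb, acyl-CoA dehydrogenases of branched-chain amino acids, rose by 0.76 ± 0.16 (limma adjusted p = 0.00406) and 0.54 ± 0.13 (adjusted p = 0.00898), and Hibch of valine breakdown by 0.54 ± 0.12 (adjusted p = 0.00431). These are steps of amino acid and not of fatty acid oxidation. Phyh, the first enzyme of peroxisomal phytanic acid breakdown, rose by 0.53 ± 0.12 (adjusted p = 0.00458) and Ech1, a dienoyl-CoA isomerase, by 0.29 ± 0.08 (adjusted p = 0.0206). Acacb, whose product malonyl-CoA inhibits Cpt1a, rose by 0.69 ± 0.19 (adjusted p = 0.0149), from 13.8, 15.2, 9.65, 12.2 and 13.9 FPKM in NormMg-HFD to 22.1, 24.4, 25.4, 18.1 and 17.7 in LowMg-HFD. Fat at normal Mg2+ raised 2 and lowered 6 of the 21, beside 24.6% and 12.8% of all genes, and fat at low Mg2+ raised 1 and lowered 6, beside 12.4% and 3.51%. Neither Mg2+ on the LFD nor the interaction gave a call in limma (2 and 6 of the 21 at an unadjusted p under 0.05, beside 6.56% and 20.4% of all genes).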

How the data were processed

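RNA of eWAT was sequenced from 19 mice, 1 library each. The authors aligned the reads with HISAT and Bowtie2 and deposited FPKM values from RSEM 1.2.31 (tools and the build GRCm38 per the submitters' processing notes), with the total read counts and the percent of reads mapped per library. The deposited table held 24238 genes. The 1 gene left out had a cell that was not a number, and 26 symbols turned into dates were restored.

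FPKM were tested on the log2(FPKM + 1) scale, on which fold changes of low genes are understated. Genes had a mean FPKM over 8 in a diet group and over 8 in at least 4 of its mice. limma 3.58.1 (R 4.3.3) was fitted to all 19 mice in 4 groups, with an intensity trend and no replicate block, two-sided, adjusted over the 8336 genes at a threshold of 0.05. FPKM estimated by RSEM keep no whole reads, so count models were not used. Replicates are mice; a NormMg-LFD replicate 1 was not analysed here. Words of 50 bases, the read length, were compared over all GENCODE transcripts; whether strand was used in counting is not given in the sources used here.

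The members, lists and alternatives were chosen with earlier results of these data known. Every member is named; those that passed in any comparison are given in every mouse, and of the 3 pathway lists those that passed for Mg2+ on the HFD or the interaction are named, except 1 that is not reported here. Alternatives were another pseudocount (0.1), 3 other filters, 2 scalings, other samples, no trend, a replicate block, and each mouse left out. Python 3.11.15 and matplotlib 3.10.9 drew the figures.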

Additional observations from a re-analysis of the deposited data

Results flagged for a closer look

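Single mice that stood far from the other mice of their diet group (Dixon's 95% critical value) were found in 11 of 148 combinations of a member and a group. Chance alone gives about 1 in 20. In LowMg-HFD replicate 4, the library with genes of sperm and epididymis, Cpt1b was high at 29.9 FPKM (next mouse 8.42), while Eci1 was low at 63.32 (next 75.18), Etfa at 165.93 (next 189.99) and Etfb at 200.02 (next 238.3). In NormMg-LFD replicate 4, Eci1 was low at 69.52 FPKM (next 84.34), Acox3 high at 37.67 (next 23.18) and Decr2 high at 15.8 (next 15.11). In LowMg-LFD replicate 1, Acad9 was high at 61.23 FPKM (next 49.44) and Hadha at 142.12 (next 106.98). Crat was high at 165.11 FPKM in LowMg-HFD replicate 5 (next 151.14), and Hsd17b4 at 154.21 in NormMg-HFD replicate 5 (next 126.02).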

How the results depend on the processing

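Of 34 differences of members that passed, 19 passed under every one of the 30 alternatives, 15 were lost under at least 1, and 0 reversed. The members called for Mg2+ on the HFD were 9 as reported, 4 with no filter, and 4 to 10 with 1 mouse left out (4 without NormMg-HFD replicate 1, 3 or 4 or LowMg-HFD replicate 3, and 5 without LowMg-HFD replicate 5). For the interaction they were 0 as reported, 1 after quantile normalization, and 0 to 1 with 1 mouse left out (Abcd2 without NormMg-HFD replicate 5 or LowMg-HFD replicate 2). Counts over all genes moved with 1 mouse left out from 921 (without NormMg-HFD replicate 3) to 1644 for Mg2+ on the HFD, from 800 (LowMg-HFD replicate 2; 834 without LowMg-LFD replicate 1, 866 without LowMg-HFD replicate 1) to 1468 for fat at low Mg2+, and from 0 to 482 for the interaction (104 as reported). Fat at low Mg2+ gave 725 genes in a fit of the compared groups alone, against 1329, and Mg2+ on the LFD gave 1 with no filter. The interaction gave 24 with a pseudocount of 0.1, 48 with an FPKM filter of 1, 2 with no filter, 28 with the filter on the overall mean, 245 after median centring, 347 after quantile normalization, 67 without the trend, 35 without LowMg-HFD replicate 4 and with a filter of 3 on log2(FPKM + 1), and 0 without the 2 libraries with genes of other organs. The share of higher genes among those called went from 30.2% to 43.3% (centring) and 47.2% (quantile) for Mg2+ on the HFD, from 65.8% to 50.1% and 46.9% for fat at normal Mg2+, and from 78.0% to 52.8% and 50.9% at low Mg2+. By the median over a class's genes, the differences with Mg2+ on the HFD were -0.15 (carnitine), 0.035 (dehydrogenases), 0.23 (electron transfer), 0.013 (peroxisomal) and -0.016 (later steps), and with fat at normal Mg2+ 0.44, -0.0093, -0.061 and 0.28 for the first 4. The causes of these moves were not tested.

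Between samples with the same replicate number, deviations from the group means had a median correlation of 0.0032 (27 pairs, -0.18 to 0.34, 5 over 0.1). The highest values, 0.34 and 0.26, were of replicate 4. Samples with unlike numbers were not correlated for comparison, so this check cannot exclude pairing. The numbers were not taken as pairs. With the replicate block, 7 members were called for Mg2+ on the HFD (5 higher, 2 lower), 18 for fat at normal Mg2+ and 4 at low Mg2+, and the interaction gave 0 genes. The fit of the compared groups alone was not defined for the interaction. FPKM give no depth per gene, so counting error of low members such as Cpt1b and Amacr is unknown.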

Other observations

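Regulators of oxidation genes, which belong to no comparison above, were read from a list of 19, of which 12 were tested. With low Mg2+ on the HFD 3 rose and 1 fell (limma), beside 5.58% and 12.9% of all genes tested. Rxra, the partner of the PPARs on DNA, rose by 0.35 ± 0.09 (SE, log2 scale; adjusted p = 0.00889), Lpin1, a phosphatidate phosphatase that also acts in the nucleus with PPAR coactivators, by 0.57 ± 0.14 (adjusted p = 0.00726), and the transcription factor Klf15 by 0.55 ± 0.17 (adjusted p = 0.0309). Esrra, the estrogen-related receptor of mitochondrial genes, fell by 0.32 ± 0.11 (adjusted p = 0.0424). The HFD raised 1 and lowered 6 of the 12 at normal Mg2+, beside 24.6% and 12.8% of all genes, and raised 0 and lowered 2 at low Mg2+, beside 12.4% and 3.51%. Low Mg2+ on the LFD gave 0 calls in limma, with 0 at an unadjusted p under 0.05.

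Of 17 genes of peroxisome assembly, catalase included, 13 were tested, and 1 rose and 0 fell with low Mg2+ on the HFD, beside 5.58% and 12.9% of all genes. Pex3, which inserts membrane proteins into the peroxisome, measured 31.2, 35.6, 22.0 and 36.8 in NormMg-LFD, 20.2, 21.6, 15.1, 17.2 and 21.3 in NormMg-HFD and 23.6, 29.2, 30.3, 33.2 and 26.5 FPKM in LowMg-HFD. It fell by 0.68 ± 0.16 with the HFD at normal Mg2+ (limma adjusted p = 0.00267) and rose by 0.56 ± 0.15 with low Mg2+ on the HFD (adjusted p = 0.015), without overlap in either comparison. Pex6 fell with the HFD at normal Mg2+ by 0.66 ± 0.11 (adjusted p = 0.000132), and Pex5, Pex6 and Pex11a fell at low Mg2+ (3 of 13, beside 3.51% of all genes). The last 3 were named after their values were seen, and no other gene of this list passed in these comparisons.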
